A study of Rattus norvegicus with 6 samples.

Results

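The genes described here encode the machinery of mitosis, that is the spindle, the kinetochores, the checkpoint that watches them and the apparatus that divides the cell. They are 45 genes given by symbol, and 39 of them were measured by a transcript cluster that carried their symbol alone, out of 18166 genes measured in this way. A transcript cluster is the set of array probes that reads the transcripts of a locus, and each of the 39 genes had 1 such cluster. Birc5, Cenpe, Spc24, Anln, Ncaph and Nek2 had none and have no value of their own here. Whole spleen tissue was studied in male Sprague-Dawley rats, 3 with partial portal vein ligation (PPVL) and 3 sham rats, and was collected 10 days after surgery. PPVL is a calibrated narrowing of this vein, a model of portal hypertension in animals whose liver is not cirrhotic, and sham rats were operated on without tying the vein. Both groups therefore share the anesthesia and the opened abdomen, and the labels give no age. Total RNA of each spleen was read on its own Affymetrix whole-transcript array, and the values are log2 intensities, so that a difference of 1 is a doubling.

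Most of these genes are transcribed in a burst as a dividing cell approaches mitosis and are silent in resting cells, so their transcripts mark the cycling part of a tissue. Genes of this kind share short promoter elements. The cell cycle homology region, whose core is TTTGAA, binds the MuvB core complex, which keeps such genes off in resting cells and joins B-MYB and FOXM1 to switch them on before mitosis, and CCAAT boxes bind NF-Y. In the spleen, the cells known to divide include germinal centre B cells, activated T cells, plasmablasts and, in rodents, the erythroid, myeloid and megakaryocyte precursors of the red pulp.

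Promoter sequences are given here as a description of the set. RefSeq windows of 300 bases (250 before and 50 after the annotated start, GRCr8 assembly) were at hand for 35 of the 39 genes, all but Aurkb, Incenp, Tpx2 and Ube2c. TTTGAA, searched on both strands, was in 28 of the 35 windows (80.0%), against 16.7% of the 14564 array genes with a window. CCAAT, searched on both strands, was in 25 of 35 (71.4%) against 38.9%, and both motifs were in 21 (60.0%) against 6.88%. Among 96 other mitotic genes with a window, TTTGAA was in 36.5% and CCAAT in 56.2%. Among 25 DNA replication genes these shares were 16.0% and 64.0%, so a high share of CCAAT was also found outside the 39 genes. The motifs can share bases, as the run in Mki67 shows. In 26 genes a TTTGAA match lay between 100 bases before and 50 bases after the start. Windows of Aurka, Bub1, Cdca3, Dlgap5, Kif11, Kif20a and Kif2c held no TTTGAA, which says only that these letters are not in the windows used. In 8 genes (Cenpf, Mad2l1, Ndc80, Nuf2, Nusap1, Plk1, Ska1 and Ttk) every match lay after the start. The 150 bases before the start follow for 6 genes of the checkpoint, anaphase, midzone and chromosome structure groups, which the values come back to. They are read 5′ to 3′ along the gene, and capitals mark matches to TTTGAA or CCAAT, or on the opposite strand TTCAAA or ATTGG. The windows are at chr12:38500458-38500607, minus strand (Kntc1), chr5:137255800-137255949, minus strand (Cdc20), chr1:143659331-143659480, plus strand (Prc1), chr14:69645446-69645595, minus strand (Ncapg), chr10:84473094-84473243, minus strand (Top2a), and chr1:199952594-199952743, minus strand (Mki67).
Kntc1: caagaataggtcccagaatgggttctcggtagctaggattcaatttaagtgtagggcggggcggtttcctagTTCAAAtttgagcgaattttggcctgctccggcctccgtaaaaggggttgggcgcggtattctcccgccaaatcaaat
Cdc20: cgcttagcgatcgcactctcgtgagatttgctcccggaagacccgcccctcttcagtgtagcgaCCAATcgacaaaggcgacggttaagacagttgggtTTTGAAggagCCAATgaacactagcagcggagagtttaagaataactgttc
Prc1: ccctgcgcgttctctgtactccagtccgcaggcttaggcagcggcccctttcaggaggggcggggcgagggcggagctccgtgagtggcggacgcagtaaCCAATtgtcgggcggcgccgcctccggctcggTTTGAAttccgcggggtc
Ncapg: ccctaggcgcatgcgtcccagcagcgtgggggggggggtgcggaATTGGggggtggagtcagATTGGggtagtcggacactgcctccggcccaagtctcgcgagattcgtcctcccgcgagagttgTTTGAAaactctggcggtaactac
Top2a: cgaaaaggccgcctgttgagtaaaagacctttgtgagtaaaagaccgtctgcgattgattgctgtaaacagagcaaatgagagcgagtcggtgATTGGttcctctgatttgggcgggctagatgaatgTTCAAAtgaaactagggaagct
Mki67: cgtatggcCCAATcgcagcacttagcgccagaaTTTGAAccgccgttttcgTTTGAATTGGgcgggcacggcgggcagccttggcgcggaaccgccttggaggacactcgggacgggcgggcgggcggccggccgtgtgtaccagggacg
In Cdc20 and Prc1 the TTTGAA match lay downstream of a CCAAT on the same strand. In Top2a and Kntc1 TTTGAA was read on the opposite strand, and Kntc1 had no CCAAT in the bases shown. A match is a description of the sequence and was not linked to a level of expression here.

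As a group, the mitotic genes had lower mean levels in PPVL spleens. All 39 had a negative log2 fold change (PPVL minus sham), from -0.73 for Bub1 to -0.11 for Kif15, with a median of -0.46. Over all genes 48.3% were negative and the median was 0.0. The 39 mitotic genes moved together from rat to rat, as given below, so their signs are not independent observations. Without PPVL rat 1 their median was -0.20. The threshold was that of the study, an unadjusted p under 0.05 in limma. At this threshold, 2 of the 39 genes fell (5.13%), where 1.55% of all genes were called lower. None rose, where 2.69% of all genes were called higher. After Benjamini-Hochberg adjustment over all clusters in limma 0 of the 39 passed, and the smallest adjusted p was 0.973. In no gene were the 3 PPVL rats all below the 3 sham rats, which was so for 4.7% of all genes, and in none were they all above, as in 6.64% of all genes. In whole tissue, a smaller share of dividing cells and less of these transcripts in each dividing cell cannot be told apart. With 3 rats in each group, 0.1 is the smallest two-sided p that exact permutation can reach.

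**Figure D1:**
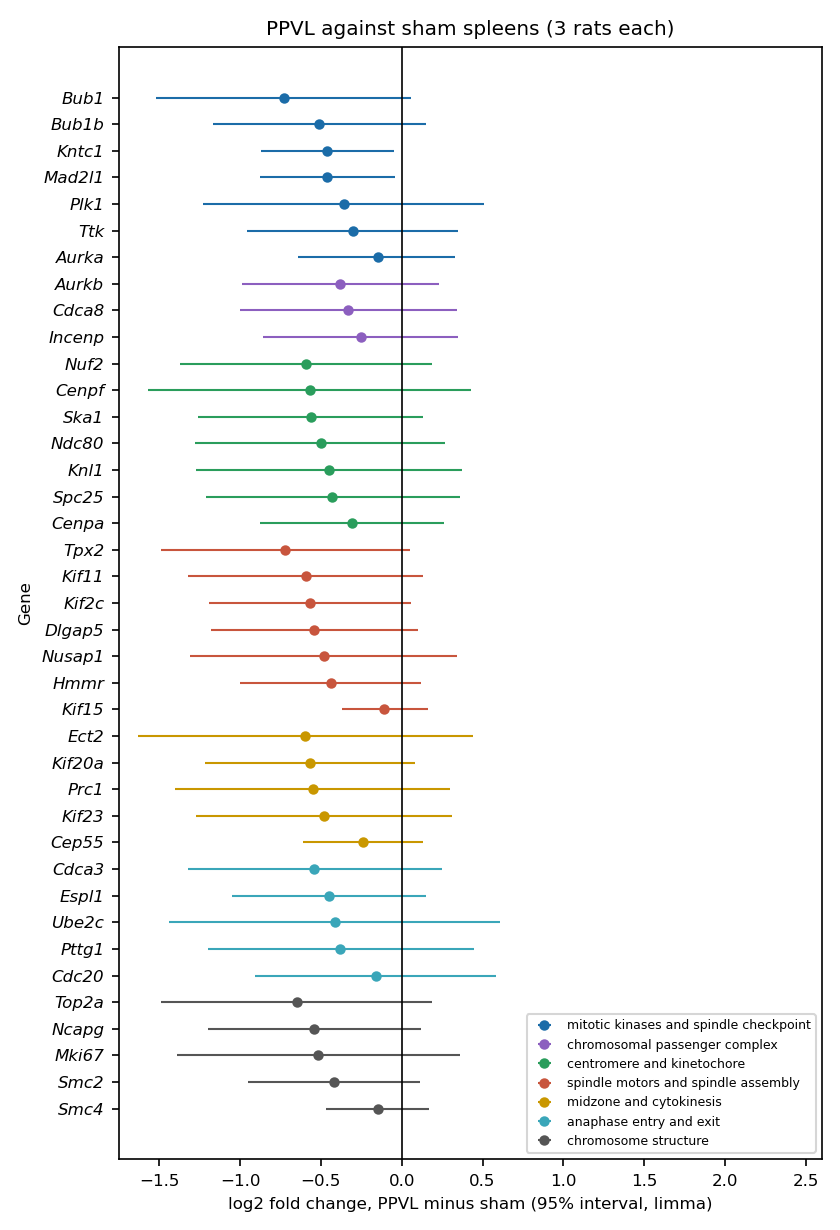
Log2 fold change of each of the 39 mitotic genes, PPVL minus sham, with its 95% interval from limma, coloured by role. All 39 points lie left of 0, and the intervals of Kntc1 and Mad2l1 alone leave out 0.

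Both genes that fell belong to the spindle assembly checkpoint, and the study names both as lower on these arrays, so they are no independent choice. Mad2l1 encodes MAD2, the checkpoint protein that holds back anaphase until every chromosome is attached. It had levels of 7.83, 8.43 and 8.09 in PPVL rats 1 to 3, and of 8.75, 8.63 and 8.36 in sham rats 1 to 3. PPVL rat 1 was lowest, and PPVL rat 2 lay just above sham rat 3, so the groups overlapped. Its log2 fold change was -0.46 (standard error 0.18, 95% interval -0.88 to -0.04, limma, adjusted p = 0.973), and an exact permutation test of the rats gave a two-sided p of 0.2. Kntc1 encodes ROD, the kinetochore protein that brings the checkpoint proteins and dynein to unattached kinetochores. Its levels were 6.31, 6.89 and 6.50 in PPVL rats and 7.18, 7.08 and 6.81 in sham rats. The order of the rats was that of Mad2l1, with PPVL rat 2 again above sham rat 3. The log2 fold change was -0.46 (standard error 0.17, 95% interval -0.87 to -0.05, limma, adjusted p = 0.973), and the exact permutation p was again 0.2. Without PPVL rat 1 the values were -0.32 for Mad2l1 and -0.33 for Kntc1, and neither passed.

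The other mitotic kinases and checkpoint genes did not pass the test. Bub1, a checkpoint kinase at the kinetochore, had the most negative fold change of all 39 genes, with levels of 6.55, 7.81 and 7.18 in PPVL rats and 8.13, 8.11 and 7.47 in sham rats. PPVL rat 2 lay between sham rat 3 and the other sham rats. The log2 fold change was -0.73 (standard error 0.33, 95% interval -1.52 to 0.06), and without PPVL rat 1 it was -0.41. Bub1b, which encodes the checkpoint protein BUBR1, had -0.51, Plk1, the kinase that drives entry into mitosis and centrosome maturation, had -0.36, and Ttk, the kinase MPS1 that starts checkpoint signaling, had -0.30. Aurka, the kinase of centrosomes and spindle poles, was the smallest of the group. Its levels were 7.92, 7.96 and 7.81 in PPVL rats and 8.31, 8.28 and 7.56 in sham rats. Here PPVL rats were close together, and sham rat 3 was lowest (-0.15, standard error 0.20).

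**Figure D2:**
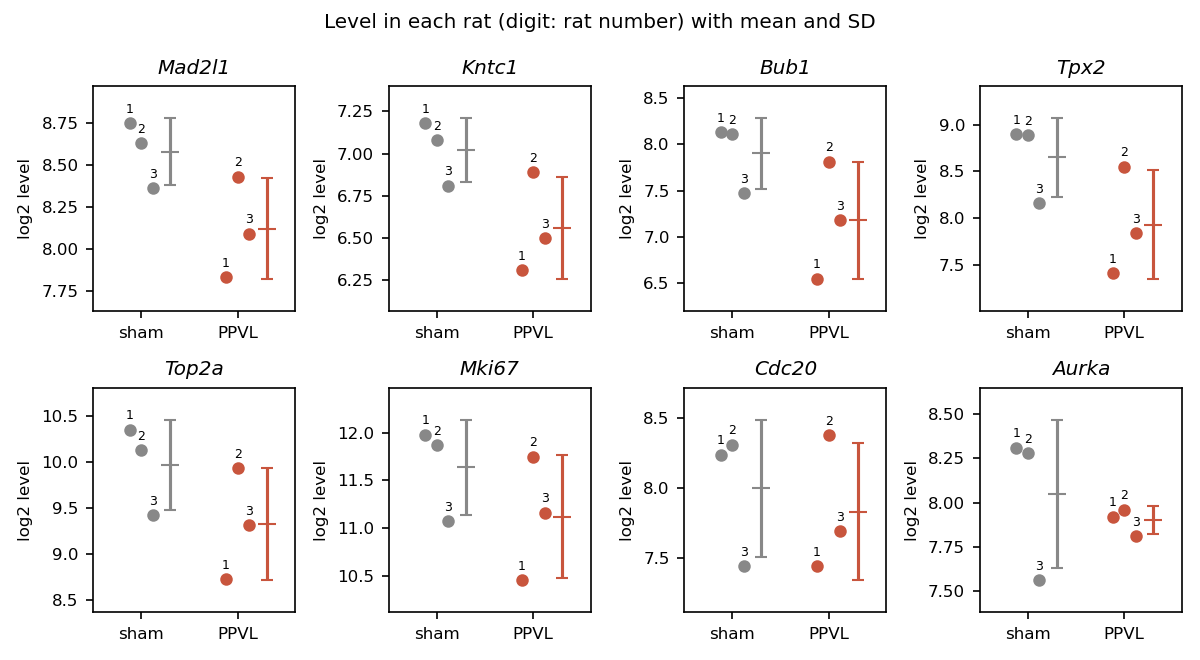
Log2 level of 8 mitotic genes in each rat, with the rat number beside each point and the group mean and SD to its right. PPVL rat 1 is lowest in 6 of the 8 panels, and the groups overlap in all of them.

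The chromosomal passenger complex corrects wrong attachments at centromeres and later moves to the midzone. Its 3 measured genes had a median log2 fold change of -0.33. Aurkb, its kinase, had levels of 8.04, 8.90 and 8.45 in PPVL rats and 8.93, 9.14 and 8.45 in sham rats. PPVL rat 3 and sham rat 3 were level, and the groups overlapped (-0.38, standard error 0.26). Incenp, the scaffold that activates Aurora B, had 7.99, 8.69 and 8.06 in PPVL rats against 8.62, 8.81 and 8.05 in sham rats. Only sham rats 1 and 2 and PPVL rat 2 were high (-0.25, standard error 0.25). Cdca8, which encodes borealin, had -0.33.

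Centromere and kinetochore genes had a median of -0.50 over 7 genes, none of them past the threshold. The kinetochore is the protein plate through which a chromosome holds on to spindle microtubules. Nuf2, a subunit of the NDC80 complex that binds microtubules, had 7.40, 8.44 and 7.96 in PPVL rats and 8.94, 8.66 and 7.97 in sham rats. All 3 PPVL rats lay under sham rats 1 and 2, and sham rat 3 lay level with PPVL rat 3 (-0.59, standard error 0.33, 95% interval -1.37 to 0.19). Its partners in the same complex, Ndc80 and Spc25, had -0.50 and -0.43. Cenpf, a large kinetochore protein of late interphase and mitosis, had -0.57 and the widest range over the 6 rats of the 39 genes, 1.77. Ska1, which keeps kinetochores on shrinking microtubules, had -0.56, and Knl1, the scaffold that recruits the BUB proteins, had -0.45. Cenpa, the histone H3 variant that marks the centromere, had 6.91, 7.44 and 7.13 in PPVL rats and 7.78, 7.67 and 6.97 in sham rats. Sham rat 3 lay between PPVL rats 1 and 3 (-0.31, standard error 0.24).

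Among spindle motors and assembly factors the median was -0.54 over 7 genes. Tpx2 encodes the protein that activates Aurora A and nucleates spindle microtubules. The study lists it among its lowered genes, with a larger fold change than the one found here, and the reason for this difference was not tested. Tpx2 had 7.41, 8.55 and 7.84 in PPVL rats and 8.90, 8.89 and 8.16 in sham rats. PPVL rats 1 and 3 lay below all sham rats and PPVL rat 2 above sham rat 3. The log2 fold change was -0.72 (standard error 0.32, 95% interval -1.49 to 0.05), which does not pass the threshold, and it was -0.46 without PPVL rat 1. Kif11, the kinesin that pushes spindle poles apart, had -0.59, and Kif2c, the kinesin MCAK that takes microtubules apart at centromeres, had -0.57. Dlgap5, Nusap1 and Hmmr, all microtubule-binding spindle proteins, had -0.54, -0.48 and -0.44. Kif15, a kinesin that backs up Kif11, hardly varied. Its levels were 7.56, 7.87 and 7.86 in PPVL rats and 7.92, 7.90 and 7.79 in sham rats, a range over 6 rats of 0.36, the smallest of the 39 genes. PPVL rat 1 was lowest here too (-0.11, standard error 0.11).

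Genes of the midzone and of cytokinesis, the final split of the cell, had a median of -0.55 over 5 genes. Ect2, the exchange factor that activates RhoA at the cell equator, had 6.58, 8.27 and 7.41 in PPVL rats and 8.31, 8.29 and 7.46 in sham rats. PPVL rat 2 was level with sham rats 1 and 2, and PPVL rat 3 with sham rat 3, so that PPVL rat 1 alone stood apart (-0.60, standard error 0.44, 95% interval -1.63 to 0.44). Kif20a and Kif23, kinesins of the midzone, had -0.57 and -0.48, and Prc1, which bundles its microtubules, had -0.55. Cep55, which recruits the machinery of abscission to the midbody, had 6.76, 6.97 and 7.13 in PPVL rats and 7.47, 7.13 and 6.97 in sham rats. In this gene PPVL rat 3, not PPVL rat 2, was the highest PPVL rat (-0.24, standard error 0.16).

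Genes of anaphase entry and mitotic exit had a median of -0.41 over 5 genes. Cdca3, known as a trigger of mitotic entry, had 7.38, 8.65 and 7.92 in PPVL rats and 8.65, 8.80 and 8.11 in sham rats. PPVL rat 2 and sham rat 1 were level (-0.54, standard error 0.33, 95% interval -1.32 to 0.25). Cdc20, which activates the anaphase promoting complex, had 7.44, 8.38 and 7.69 in PPVL rats and 8.24, 8.31 and 7.44 in sham rats. PPVL rat 2 was highest of all 6 rats, and sham rat 3 was as low as PPVL rat 1 (-0.16, standard error 0.31). Without PPVL rat 1 its fold change turned to 0.03. Espl1, the protease separase that opens cohesin, had -0.45, its inhibitor securin, encoded by Pttg1, had -0.38, and Ube2c, the ubiquitin-conjugating enzyme of the anaphase promoting complex, had -0.41.

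Genes of mitotic chromosome structure had a median of -0.52 over 5 genes. Top2a, the topoisomerase that untangles sister chromatids, had 8.72, 9.93 and 9.31 in PPVL rats and 10.35, 10.13 and 9.42 in sham rats. PPVL rat 2 lay between sham rats 2 and 3 (-0.65, standard error 0.35, 95% interval -1.49 to 0.19). Mki67 encodes Ki-67, the nuclear protein that coats mitotic chromosomes and serves as a stain for cycling cells. Its levels were 10.45, 11.75 and 11.16 in PPVL rats and 11.98, 11.87 and 11.07 in sham rats. PPVL rats 2 and 3 both lay above sham rat 3 (-0.52, standard error 0.37, 95% interval -1.39 to 0.36). By immunolabeling of Ki67, the study reported significantly more cell proliferation in PPVL spleens. That is a count of stained cells in sections, a measure unlike the RNA level given here, and the 2 were not compared. The condensin genes Ncapg and Smc2 had -0.54 and -0.42. Smc4, the partner of Smc2 in condensin, had 10.18, 10.30 and 10.55 in PPVL rats and 10.65, 10.51 and 10.32 in sham rats, with PPVL rats 1 and 2 and sham rat 3 low (-0.15, standard error 0.13).

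The genes moved together from rat to rat more than between the groups. The median range over the 6 rats was 1.23 for the 39 genes (0.36 to 1.77) and 0.34 for all genes, and the median within-group SD was 0.45 against 0.12. PPVL rat 1 had the lowest level of 37 of the 39 genes, all but Aurka and Cdc20, and lay a median of 0.71 below each gene's mean. Over all genes it was the lowest array for 16.6%. Sham rat 1 had the highest level of 31 genes and sham rat 2 of 7, and their medians were 0.49 and 0.41 above the mean. PPVL rat 2 lay 0.27 above. PPVL rat 3 and sham rat 3 lay below, by medians of 0.24 and 0.21. By these medians PPVL rat 2 stood nearer to sham rats 1 and 2 than to its own group, and sham rat 3 stood beside PPVL rat 3.

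**Figure D3:**
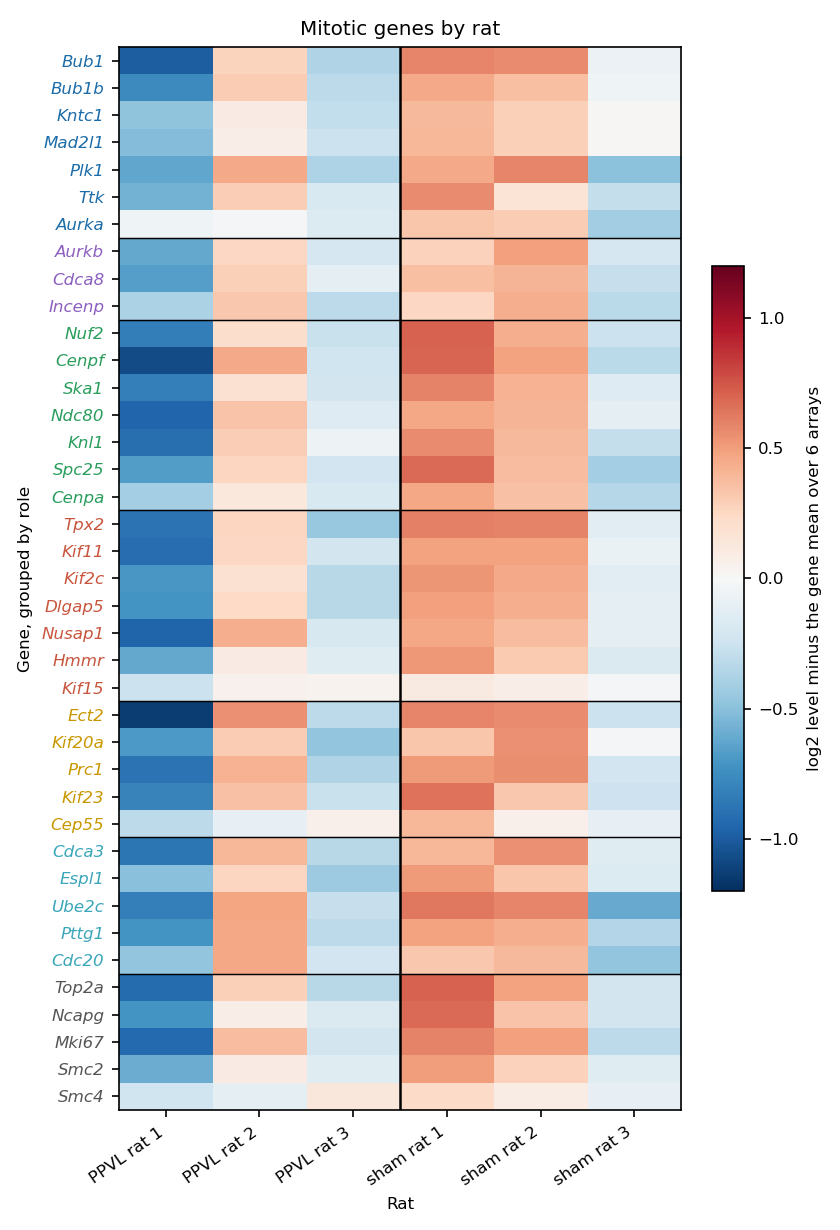
Log2 level of each of the 39 mitotic genes in each rat minus the gene's mean over the 6 arrays, with rats in columns and genes in rows grouped by role. Blue marks values below the mean and red above. The column of PPVL rat 1 is the darkest blue, and the column of sham rat 3 resembles that of PPVL rat 3.

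Rat by rat, the distances differed widely. PPVL rat 1 lay below sham rat 1 in all 39 genes, by a median of 1.22 on the log2 scale (2.33-fold). PPVL rat 2 lay below sham rat 1 in 36 genes, by a median of only 0.26 (1.19-fold), and above sham rat 3 in 37, by a median of 0.45 (1.37-fold). PPVL rat 3 and sham rat 3 could not be ordered, since PPVL rat 3 was below in 19 of 39 and the median difference was 0.0. Within the sham group, rats 1 and 2 were above rat 3 in all 39 genes, by medians of 0.69 and 0.64. These distances within the sham group exceed the median difference between the groups.

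The number of genes past the threshold depended on which rats entered the fit. Without PPVL rat 1, 0 of the 39 genes passed the unadjusted threshold in limma, where 0.925% of all genes were called lower, the median fold change was -0.20, and 38 of 39 stayed negative, with Cdc20 as the exception. Without PPVL rat 2, 24 genes were lower (61.5%, all genes 2.77%) and the median was -0.72. Without sham rat 3, 16 were lower (41.0%, all genes 2.09%) with a median of -0.70. Both of these fits keep PPVL rat 1, the lowest rat for most of the 39 genes, which also carried transcripts of the exocrine pancreas, as given below. Leaving out PPVL rat 3, sham rat 1 or sham rat 2 gave 0 genes, with 1.12%, 1.24% and 1.68% of all genes called lower and medians of -0.48, -0.33 and -0.40. No gene passed an adjusted p under 0.05 in any of these fits, and each leaves a group with 2 rats. The median stayed below 0 in each.

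**Figure D4:**
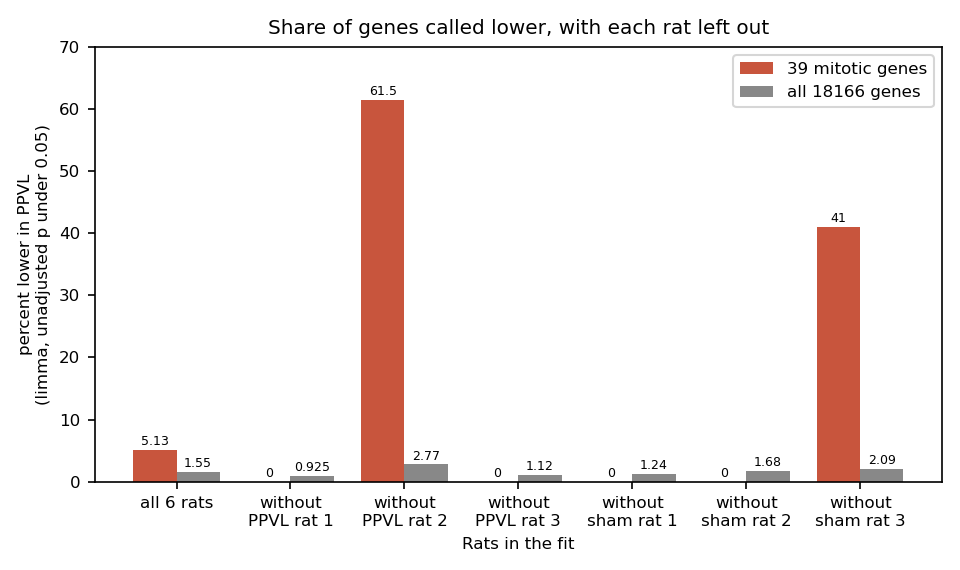
Percent of the 39 mitotic genes and of all 18166 genes lower in PPVL at an unadjusted p under 0.05 in limma, with all 6 rats and with each rat left out in turn. The share of the mitotic genes is 5.13% with all rats, 61.5% without PPVL rat 2, 41.0% without sham rat 3 and 0 in the other fits.

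The fits without PPVL rat 2 and without sham rat 3 shared 12 genes, that is 12 of 24 and 12 of 16. Without PPVL rat 2, calls came from every role group, with 6 of 7 spindle genes (Dlgap5, Hmmr, Kif11, Kif2c, Nusap1, Tpx2), 4 of 5 midzone genes (Ect2, Kif20a, Kif23, Prc1), 4 of 7 kinetochore genes, 4 of 7 kinase and checkpoint genes, 3 of 5 chromosome structure genes, 2 of 5 anaphase genes and Aurkb. Without sham rat 3 none of the passenger or midzone genes was called. Mad2l1 and Kntc1 were in both sets. Groups did not overlap, with PPVL below, in 31 of 39 genes without sham rat 3 (all genes 10.5%), in 19 without PPVL rat 2 (all genes 10.9%), and in 2 without PPVL rat 3 (all genes 9.37%). It was 0 when PPVL rat 1, sham rat 1 or sham rat 2 was left out, and all genes gave 8.14%, 9.08% and 10.3%. With all 6 rats, array weights, which give discordant arrays less say, called 11 genes (all genes 1.95%), a fit on clusters with 1 symbol alone called 5 (all genes 2.19%), and median centring of the arrays called 0 in limma at the unadjusted threshold (all genes 1.26%).

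Other genes of mitosis, from a list of 118 of which 111 were measured, had the same order of rats by their median deviations, with smaller distances. Of these, 101 had a negative fold change, with a median of -0.22, 6 fell (5.41%, all genes 1.55%) and 0 rose. The 6 were Ercc6l, Cdc25c, Bora, Mastl, Pbk and Haus7, and in each of them all PPVL rats lay below all sham rats. That was so for 14 of the 111 (all genes 4.7%). The study already names Ercc6l, Cdc25c and Haus7 as lower on these arrays, so these calls are not independent of it. Without PPVL rat 1, 3 of the 111 were called lower (2.7%, all genes 0.925%), 95 were negative and the median was -0.11. Ercc6l, a helicase at the threads that join separating centromeres, had 6.41, 6.58 and 6.41 in PPVL rats and 6.95, 7.09 and 6.78 in sham rats (-0.48, standard error 0.11, 95% interval -0.74 to -0.21, limma, adjusted p = 0.917). Cdc25c, the phosphatase that activates CDK1, had 6.71, 6.88 and 6.61 against 7.12, 7.11 and 7.08 (-0.37, standard error 0.10, 95% interval -0.60 to -0.14, limma, adjusted p = 0.973). An exact permutation test gave 0.1 for both, the smallest p it can give. In both, PPVL rat 1 was not set apart from PPVL rat 3. Bora, the cofactor by which Aurora A activates PLK1, had -0.32, and Mastl, the kinase that restrains the phosphatase opposing CDK1, had -0.63. Pbk, a kinase of mitotic cells, had -0.64, and Haus7, a subunit of the augmin complex that branches spindle microtubules, had -0.28.

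Cdk1, Ccnb1 and Foxm1 did not pass. Cdk1, the kinase that starts mitosis, had 7.33, 8.48 and 7.85 in PPVL rats and 8.71, 8.50 and 7.85 in sham rats (-0.46, standard error 0.33). Ccnb1, its cyclin, had 7.84, 9.12 and 8.39 against 9.19, 9.17 and 8.67 (-0.56, standard error 0.32). PPVL rat 1 was lowest in both. Foxm1, the transcription factor that activates many of these genes, had 7.27, 7.71 and 7.43 against 7.68, 7.73 and 7.25, with sham rat 3 lowest (-0.08, standard error 0.17). Median fold changes by list ran from -0.42 for 16 mitotic entry genes to -0.06 for 16 genes of the anaphase promoting complex, most of whose subunits are made throughout the cycle.

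DNA replication genes, which act in the phase before mitosis, were counted beside them. Of 30 measured of 32, 29 had a negative fold change, with a median of -0.28, 4 fell (13.3%, all genes 1.55%) and 0 rose. Those 4 were Orc1, the largest subunit of the origin recognition complex (-0.58), Pole2, a subunit of DNA polymerase epsilon (-0.56), Tyms, which makes thymidylate (-0.42), and Prim2, a primase subunit (-0.20). The study already names Orc1 and Tyms as lower on these arrays. Without PPVL rat 1, 0 passed in limma, also unadjusted (all genes 0.925%). Without PPVL rat 2 it was 16 (53.3%, all genes 2.77%) and without sham rat 3 it was 10 (33.3%, all genes 2.09%). Leaving out PPVL rat 3 or sham rat 1 gave 1 each (3.33%, all genes 1.12% and 1.24%), and leaving out sham rat 2 gave 0 (all genes 1.68%). Array weights gave 9 (30.0%, all genes 1.95%) and median centring 1 (3.33%, all genes 1.26%). PPVL rat 1 was the lowest array for 21 of the 30.

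Markers of cell types were read on the same arrays. B cell (6 of 6 measured), T cell (8 of 8) and red pulp macrophage markers (8 of 8) were above the array median on all 6 arrays, as befits spleen. PPVL rat 1 was highest for most genes of the exocrine pancreas, fibroblast and T cell lists. For T cells this was 6 of 8 genes, with a median deviation of only 0.22 in that rat. PPVL rat 1 carried transcripts of the exocrine pancreas, with 19 of 19 measured genes highest in this rat, a median 15.9-fold over the other 5. Their summed level on the log2 scale was 14.76 in that rat and 9.93 to 9.98 in sham rats. Fibroblast and matrix markers were highest in PPVL rat 1 for 7 of 8 genes, with a median deviation of 1.18 there. Their summed level was 12.07 to 13.29 in PPVL rats and 11.45 to 12.29 in sham rats. Of the 8, 4 rose (all genes 2.69%), and 2 did so without PPVL rat 1 (all genes 1.62%). Erythroid precursor markers were likewise lowest in PPVL rat 1 and above their means in PPVL rat 2 and sham rats 1 and 2. All 14 measured of 17 were lowest in PPVL rat 1, with median deviations of -1.38, 0.64 and -0.31 in PPVL rats 1 to 3 and 0.64, 0.74 and -0.31 in sham rats 1 to 3. Their summed level was 12.33 to 14.37 in PPVL rats and 13.42 to 14.42 in sham rats, and that of the 39 mitotic genes was 13.14 to 14.11 and 13.62 to 14.34. Klf1, the master regulator of erythroid genes, had 6.07, 8.14 and 7.09 in PPVL rats and 8.15, 8.38 and 6.71 in sham rats. Of the 14 markers 0 passed in limma, also unadjusted, and their median fold change was -0.64. The part of erythroid precursors, of fibroblasts and of the pancreatic transcripts in the mitotic values was not tested.

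**Figure D5:**
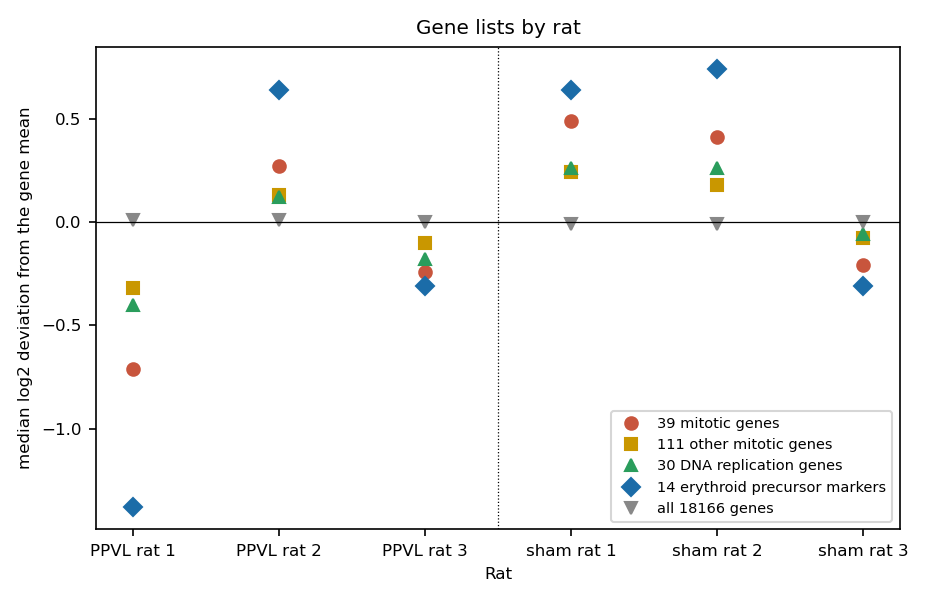
Median over each gene list of the log2 deviation from the gene's mean over 6 arrays, by rat. Mitotic genes and erythroid precursor markers are lowest in PPVL rat 1 (-0.71 and -1.38) and above 0 in PPVL rat 2, sham rat 1 and sham rat 2, while all genes stay near 0.

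Markers of other cell types that can divide in the spleen were mixed. Neutrophil precursor markers rose in 4 of 6 (all genes 2.69%), and in 5 without PPVL rat 1 (all genes 1.62%). Only 2 of the 6 lay above the array median on all 6 arrays. The study already lists some of them, such as Defa5 and Mpo, as raised on these arrays, so they are no independent choice. Their summed level was 10.31 to 11.52 in PPVL rats and 9.20 to 9.79 in sham rats. Defa5, at 10.93 in PPVL rat 2, weighs most in this sum. Germinal centre B cell markers had summed levels of 10.38 to 10.74 and 10.31 to 10.79, with 0 of 5 past the threshold in limma, also unadjusted. Megakaryocyte markers had 10.77 to 11.60 and 11.22 to 11.59, with 6 of 6 negative and 0 past the threshold in limma, also unadjusted, and they too were low in PPVL rats 1 and 3. B cell markers (13.70 to 13.94 and 13.71 to 13.96) and T cell markers (12.18 to 12.53 and 12.25 to 12.33) overlapped between the groups. Plasma cell markers had 12.73 to 12.83 and 12.52 to 12.73, with 0 of 7 past the threshold in limma, also unadjusted. Natural killer cell markers fell in 3 of 6 (all genes 1.55%), and in 2 without PPVL rat 1 (all genes 0.925%). Their summed level was 11.34 to 11.40 in PPVL rats and 11.53 to 11.76 in sham rats. The share of each cell type in the mitotic transcripts was not tested.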

How the data were processed

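Spleen RNA of 3 PPVL and 3 sham rats was measured with 1 array per rat, each sample being a rat of its own by its label. The authors summarised 36685 transcript clusters with Transcriptome Analysis Console (RMA). Deposited values are log2 intensities. Background correction and normalization are therefore theirs, and scanner files, scan dates and slides were not used here. Array medians lay between 6.22 and 6.33. Depth has no meaning for arrays, and their number limits the precision.

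Platform annotation gave the gene symbols, which were brought up to date by Entrez identifier (18394 of 18511 clusters with 1 symbol matched RefSeq), and the cluster with the highest mean stood for each gene. PPVL was compared with sham in limma 3.58.1 (R 4.3.3, lmFit and eBayes, no covariate), with Benjamini-Hochberg adjustment over all clusters and the study's threshold, an unadjusted p under 0.05. The script was tested on simulated data. Members and lists were chosen with earlier results of these data known. Rat by rat values are given for genes past the threshold, for the largest and smallest fold change in each role group, and for Tpx2, Mad2l1, Kntc1 and Mki67. Of the other lists, up to 10 genes with the smallest p, Cdk1, Ccnb1 and Foxm1 could be named, and of marker lists at most 2. Summed levels are the log2 of summed linear intensities. Alternatives were each rat left out, a replicate block, a filter at the 40th percentile, clusters with 1 symbol alone, a variance trend, a robust prior, array weights, quantile normalization, median centring and the mean of a gene's clusters. Promoter sequences are from RefSeq (GRCr8).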

Additional observations from a re-analysis of the deposited data

How the results depend on the processing

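Of 39 mitotic genes, 2 passed with all rats (5.13%, all genes 1.55%). With each rat left out the count lay between 0 and 24, the latter without PPVL rat 2 (61.5%, all genes 2.77%). It was 5 when only clusters with 1 symbol were fitted (all genes 2.19%), with Bub1, Kif2c and Tpx2 added. Array weights gave 11 (all genes 1.95%). Median centring gave 0 in limma (all genes 1.26%), where neither Mad2l1 nor Kntc1 passed. The other mitotic genes gave 6 with all rats (5.41%, all genes 1.55%) and 12 with array weights (10.8%, all genes 1.95%). With a rat left out, their count ran from 2 without sham rat 1 (1.8%, all genes 1.24%) to 34 without PPVL rat 2 (30.6%, all genes 2.77%). Of the 39, genes whose groups do not overlap, with PPVL below, numbered 0 with all rats (all genes 4.7%). With a rat left out they lay between 0 and 31, the latter without sham rat 3 (all genes 10.5%). The median fold change lay between -0.72 and -0.20 in all 15 alternatives, and 0 genes rose in any of them. Cdc20 alone changed sign, to 0.03 without PPVL replicate 1, and its fold change lay between -0.44 and 0.03 with a rat left out. The cause of these shifts was not tested.

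Labels number the rats of both groups by order, and also give animal codes whose numbers differ from this order in the PPVL group. Rats with the same order number deviated little together from their group means (r of -0.13, 0.14 and 0.12 over all clusters). By code, PPVL rat 2 and sham rat 3 share a number instead (r of -0.28). The labels do not say that rats were paired. With 3 rats per group, these values cannot show whether such rats share more than a number. With the replicate number as a block, 4 genes passed (all genes 1.49%), Kif20a and Tpx2 beside Mad2l1 and Kntc1, and the count of other mitotic genes stayed at 6.

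The 3 rats per group, the spread among sham rats and the tissue mixture limit these values.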

Other observations

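Nek2, a kinase that parts the centrosomes, shares its transcript cluster with Nek2l1, and neither gene has a value of its own. That cluster had log2 levels of 6.62, 8.0 and 7.26 in PPVL rats 1 to 3 and 8.01, 8.16 and 7.23 in sham rats 1 to 3, and PPVL rat 1 was again lowest with the groups overlapping.

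The widest spread among the other mitotic genes belonged to Depdc1, Esco2 and Sgo2, singled out after their values were seen. Depdc1, a gene expressed in mitotic cells, had 6.19, 8.18 and 7.56 in PPVL rats and 8.44, 8.15 and 7.37 in sham rats, a range of 2.25. Esco2, which acetylates cohesin to join sister chromatids, had 6.58, 8.54 and 7.96 against 8.79, 8.75 and 8.04, a range of 2.20. Sgo2, which shields centromeric cohesin, had 6.18, 7.55 and 7.04 against 8.15, 8.02 and 7.07, a range of 1.96. PPVL rat 1 was more than 1 below the other rats of its group in Depdc1 and Esco2, and none of the 3 genes passed the threshold.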
